A study of Homo sapiens with 12 samples.

Results

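KCNMB4, ANXA2R, TP53INP2, CEMIP, SDC1, MKX, DDR2 and DPP4 are 8 genes outside the HOX clusters, of 78930 genes read, whose transcripts were chosen because they were lower after degradation of the leukaemia protein NPM1c or higher with its full-length form than with a C-body null form put back. They were chosen by values of these same libraries: the rule, which names no threshold, used dTAG mCherry against NTC DMSO and dTAG FL-NPM1c against dTAG C-body null, so the values of the 8 genes in those 2 comparisons are a description and carry no test. All 8 passed the filter on low counts.

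The study put versions of NPM1c back into OCI-AML3 cells, a human acute myeloid leukaemia line, whose own NPM1c can be degraded (genotype NPM1c-degron, with wild-type NPM1 kept, in all groups). In 3 groups lentivirus carried full-length NPM1c with an mCherry tag (dTAG FL-NPM1c), the C-body null form with the same tag (dTAG C-body null) or only mCherry (dTAG mCherry), and the cells were given 500 nM dTAG-13 at 48 hours after transduction, and were sorted for mCherry 24 hours later. The fourth group is NTC DMSO, whose titles name the DMSO vehicle while its treatment label reads dTAG. The same 48 hours from transduction to drug and 24 hours from drug to sort are recorded for NTC DMSO. No construct is named for NTC DMSO and the labels do not spell NTC out, so differences of construct and of drug cannot be told apart in comparisons with it. What makes the C-body null form null is not described in the labels, and the 2 forms of NPM1c were expressed from lentivirus and not from the gene's own promoter. Each group had 3 libraries, 12 in all, and the labels do not say whether each is its own culture; the p-values therefore measure the variation among these libraries, part of which may be technical.

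NPM1 is a nucleolar chaperone that also moves to and from the cytoplasm. Its leukaemia mutant NPM1c carries an altered end that adds a nuclear export signal, and leukaemias with it are known for high HOX and MEIS1 expression, which depends on the menin and MLL chromatin complex. dTAG-13 is a small molecule that brings a tagged protein to a ubiquitin ligase for destruction. The 8 genes belong to no single pathway: they encode a channel subunit, receptors, cell surface and matrix proteins, an autophagy adaptor and a transcription factor.

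For 7 of the 8 genes RefSeq (GRCh38.p14) gave transcription starts with the bases before them, 12 windows of 250 bases in all; KCNMB4 had no entry. 5 windows that lie upstream of their gene are printed 5′ to 3′ on the gene's strand, to show starts that range from GC-rich ones with CCAAT or TATAAA matches to the GC-poor start of DDR2; capitals mark matches to the motifs named after them. The TP53INP2 window is ended at the first base of its gene in GENCODE 29, 54 bases early, and the CEMIP window runs 27 bases into the annotated gene. They are ANXA2R at chr5:43043248-43043497 (minus strand), TP53INP2 at chr20:34704094-34704289 (plus), CEMIP at chr15:80779120-80779369 (plus), SDC1 at chr2:20225476-20225725 (minus) and DDR2 at chr1:162630613-162630862 (plus).
ANXA2R: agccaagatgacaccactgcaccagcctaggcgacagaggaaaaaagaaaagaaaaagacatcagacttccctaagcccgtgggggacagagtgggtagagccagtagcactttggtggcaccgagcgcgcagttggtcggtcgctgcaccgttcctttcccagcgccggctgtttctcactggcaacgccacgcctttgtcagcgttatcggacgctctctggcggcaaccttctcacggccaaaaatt
TP53INP2: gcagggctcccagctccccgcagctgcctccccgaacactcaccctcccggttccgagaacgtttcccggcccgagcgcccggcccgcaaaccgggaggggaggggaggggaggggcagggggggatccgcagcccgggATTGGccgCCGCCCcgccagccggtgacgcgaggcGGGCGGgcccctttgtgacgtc
CEMIP: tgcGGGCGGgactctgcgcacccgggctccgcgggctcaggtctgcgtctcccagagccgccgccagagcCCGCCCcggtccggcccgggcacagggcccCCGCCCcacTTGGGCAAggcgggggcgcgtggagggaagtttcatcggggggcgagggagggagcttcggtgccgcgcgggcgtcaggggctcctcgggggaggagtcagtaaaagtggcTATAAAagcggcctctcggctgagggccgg
SDC1: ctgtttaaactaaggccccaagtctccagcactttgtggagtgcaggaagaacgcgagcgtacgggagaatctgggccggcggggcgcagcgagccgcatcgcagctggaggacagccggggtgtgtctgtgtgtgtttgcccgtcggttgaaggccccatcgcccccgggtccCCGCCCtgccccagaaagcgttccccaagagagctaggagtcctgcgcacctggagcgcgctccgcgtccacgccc
DDR2: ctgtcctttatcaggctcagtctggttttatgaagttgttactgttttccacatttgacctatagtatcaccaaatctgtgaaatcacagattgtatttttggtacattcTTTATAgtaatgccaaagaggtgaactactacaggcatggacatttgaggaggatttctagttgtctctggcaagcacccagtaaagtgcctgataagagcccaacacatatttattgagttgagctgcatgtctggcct

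The 12 windows were mostly rich in G and C. Their GC content ranged from 40% in the DDR2 window printed above to 75.2% in a window of SDC1, with a median of 69.2%, against a median of 58% over 35116 windows of all genes in the table. They held a median of 22 CpG pairs, against 11 over all windows. On either strand, GGGCGG was found in 7 of the 12 windows (42.6% of all windows), CCAAT in 3 (32%), TATAAA in 3 (10.7%), TTGCNNAA in 2 (9.05%), and CACGTG (6.34%), TGTGGT (11%) and GAGGAAG (11.2%) in 1 each. TGACAG, the core that MEIS proteins bind, was in 0 of the 12 (13% of all windows), as were TGATNNAT (6.47%) and TGANTCA (6.57%). The TATAAA of CEMIP begins 30 bases before the RefSeq start and crosses the first base of the gene in GENCODE 29, and TP53INP2 holds a CCAAT match on the other strand (ATTGG) 111 bases before its RefSeq start. These matches describe the letters in the windows and no site or factor.

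Libraries held 30.5 M to 59.9 M gene counts, and the lowest count of any member was 27, for KCNMB4 in C-body null cells. Levels are given as CPM, the count divided by the library total after TMM scaling, and compared between genes only as CPM per kilobase of exon (RPKM). Differences are log2 fold changes ± SE from 1 fit over all 24064 genes tested, and a gene was called where its p adjusted over all of them was under 0.05. mCherry replicate 2 and NTC DMSO replicate 3 stood apart from their groups on the third principal component (15.6 against -26.7 and -24.4, and 25.2 against -5.82 and -4.85). The second component held more of the variance (18.5% against 9.89%). On it mCherry replicate 3 lay at 41.4 against 15.9 and 4.10, and NTC DMSO replicate 3 at -9.73 against 10.1 and 13.1. Mitochondrial genes took 8.41%, 7.32% and 9.63% of counts in mCherry replicates 1 to 3 and 6.83% to 7.63% elsewhere; their part in the results was not tested. Without mCherry replicate 2, 1399 genes were called between C-body null and mCherry cells, against 143 with it.

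Transcripts of the targeted gene were checked first. Those of NPM1, which the counts do not split into wild-type and mutant, averaged 1651 ± 38.9 CPM in FL-NPM1c cells, 1922 ± 21.7 CPM in C-body null cells, 1252 ± 171 CPM in mCherry cells and 1430 ± 117 CPM in NTC DMSO cells (SD, n = 3 each). NPM1 was higher than in mCherry cells in both FL-NPM1c cells (log2 0.40 ± 0.09, edgeR adjusted p = 0.0073) and C-body null cells (log2 0.62 ± 0.09, edgeR adjusted p = 0.0029). The FL-NPM1c call was lost without FL-NPM1c replicate 1 (adjusted p = 0.064; 4.2e-06 to 0.064 over the alternatives). Between FL-NPM1c and C-body null cells NPM1 differed by log2 -0.22 ± 0.09 (edgeR adjusted p = 0.14). Degradation acts on protein, so RNA does not show it.

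Across the groups, 5 of the 8 genes (KCNMB4, ANXA2R, TP53INP2, MKX and DPP4) had their highest mean in NTC DMSO cells, then FL-NPM1c, mCherry and C-body null cells in that order. CEMIP and SDC1 were highest in FL-NPM1c cells, above NTC DMSO, mCherry and C-body null cells in turn. DDR2 was highest in NTC DMSO cells and had FL-NPM1c cells below mCherry cells. All 8 had their lowest mean in C-body null cells. Per kilobase, MKX and TP53INP2 were the highest of the 8 in every group, with MKX at 23.3 RPKM in FL-NPM1c, 12.4 in C-body null, 18.6 in mCherry and 30.6 in NTC DMSO cells.

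**Figure D1:**
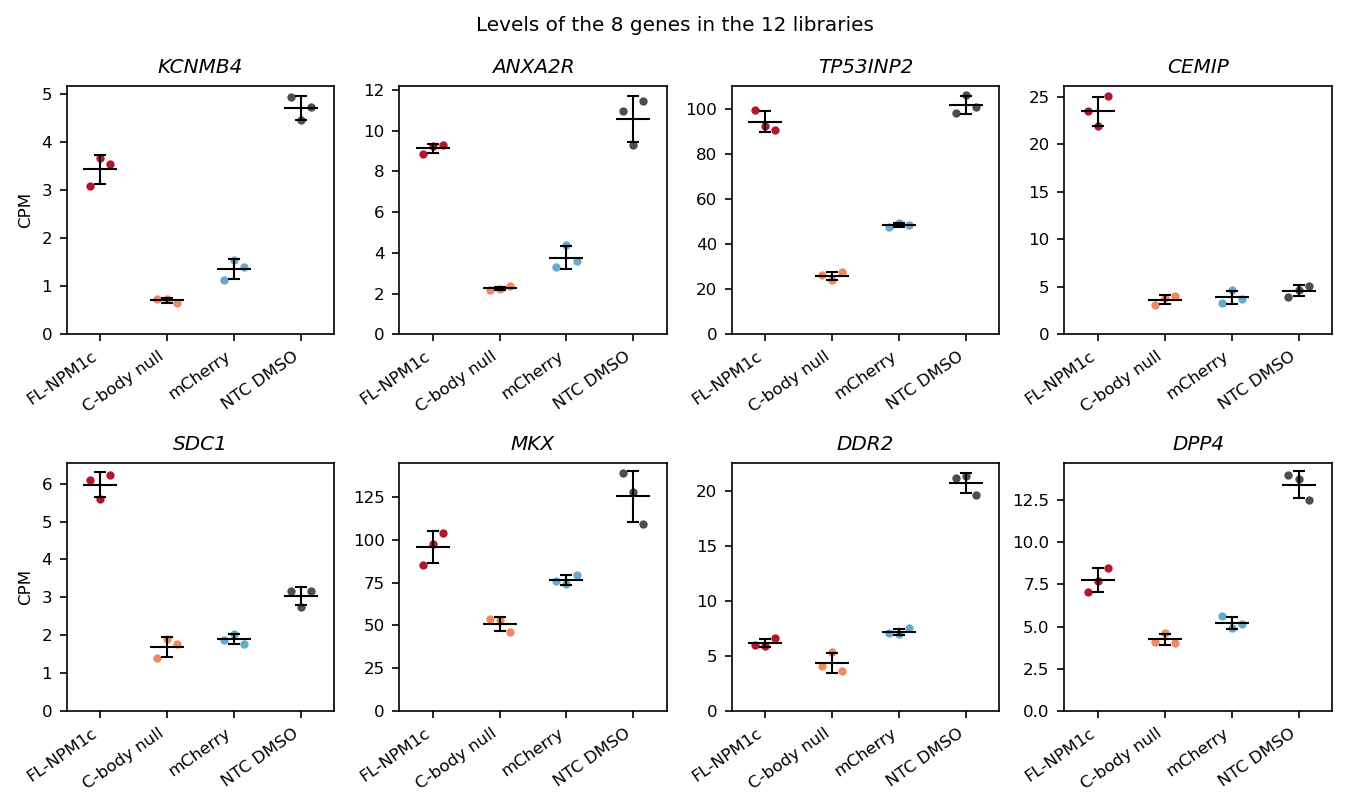
CPM of each of the 8 genes (y axis, from 0, a scale per gene) in the 3 libraries of each group (points), with the group mean and SD (bars); groups run FL-NPM1c, C-body null, mCherry, NTC DMSO. CEMIP stands at 21.9 to 25.0 CPM in FL-NPM1c libraries and at no more than 5.10 CPM in the other 9, and DDR2 at 19.6 to 21.4 CPM in NTC DMSO libraries and at no more than 7.48 CPM in the other 9.

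KCNMB4 (ENSG00000135643, GRCh38 chr12:70366276-70434292, plus strand) encodes the beta 4 subunit of the calcium- and voltage-gated BK potassium channel, best known in brain. It was measured at 3.09, 3.66 and 3.54 CPM in FL-NPM1c cells, 0.742, 0.734 and 0.644 CPM in C-body null cells, 1.13, 1.54 and 1.40 CPM in mCherry cells, and 4.94, 4.45 and 4.73 CPM in NTC DMSO cells. No group overlapped with the next in order. FL-NPM1c cells were above mCherry cells by log2 1.33 ± 0.15 (edgeR adjusted p = 2.3e-05) and below NTC DMSO cells by log2 -0.45 ± 0.13 (edgeR adjusted p = 0.016). The call against NTC DMSO was lost without NTC DMSO replicate 1 or FL-NPM1c replicate 1 (adjusted p = 0.07 and 0.059; 0.0079 to 0.07 over the alternatives). C-body null cells were below mCherry cells, by log2 -0.95 ± 0.18 (edgeR adjusted p = 0.021). Leaving out C-body null replicate 1, 2 or 3 or mCherry replicate 3 ended that call (adjusted p = 0.082, 0.072, 0.12 and 0.057; 0.0091 to 0.16 over the alternatives). Below NTC DMSO cells, C-body null cells were lower by log2 -2.73 ± 0.16, or 6.65-fold (edgeR adjusted p = 2.5e-09).

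Other genes of the channel KCNMB4 belongs to were read beside it. Of 8 other genes for BK channel subunits, 3 passed the filter, and KCNMA1, which encodes the pore, had at most 7 counts in any library. The 8 summed to 10.65 to 11.92 CPM in FL-NPM1c, 9.39 to 10.11 in C-body null, 11.9 to 13.01 in mCherry and 10.83 to 14.56 in NTC DMSO libraries. Between FL-NPM1c and C-body null cells 0 of the 3 were called by edgeR (1 at an unadjusted p under 0.05, 0 by DESeq2), with a median log2 fold change of -0.20, against 0.01 over all genes and 9.68% of genes called. Against NTC DMSO cells 1 was higher and 1 lower in FL-NPM1c cells, and also in C-body null cells. In mCherry cells 1 was higher and 0 lower. Of all genes, 27.9%, 26.6% and 22.6% were called in these comparisons. The higher gene was KCNMB1 each time, named after its values were seen (log2 1.66 ± 0.33, 1.97 ± 0.33 and 1.85 ± 0.33, edgeR adjusted p = 0.0015, 0.00025 and 0.00064).

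ANXA2R (ENSG00000177721, chr5:43039081-43043170, minus strand) encodes a cell surface protein described as a receptor for annexin A2. Its levels were 8.84, 9.26 and 9.27 CPM in FL-NPM1c cells, 2.20, 2.20 and 2.36 CPM in C-body null cells, 3.32, 4.38 and 3.61 CPM in mCherry cells, and 10.96, 9.30 and 11.47 CPM in NTC DMSO cells. FL-NPM1c and NTC DMSO libraries lay close together, the highest at 9.27 CPM below the lowest at 9.30 CPM, and both stood well above the other 2 groups. ANXA2R was higher in FL-NPM1c than in mCherry cells by log2 1.27 ± 0.12 (edgeR adjusted p = 5.5e-06), while its difference from NTC DMSO cells was log2 -0.21 ± 0.11 (edgeR adjusted p = 0.17). In C-body null cells it was lower than in mCherry cells by log2 -0.75 ± 0.14 (edgeR adjusted p = 0.014), a call lost without C-body null replicate 1 or 2 (adjusted p = 0.086 and 0.065; 0.00076 to 0.12 over the alternatives). C-body null cells were below NTC DMSO cells by log2 -2.23 ± 0.13 (edgeR adjusted p = 2e-09).

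The gene of its ligand was not called by edgeR. ANXA2, which encodes annexin A2, a calcium-dependent membrane-binding protein, averaged 659 ± 32.5 CPM in FL-NPM1c cells, 569 ± 11.9 CPM in C-body null cells, 626 ± 40.2 CPM in mCherry cells and 640 ± 25.7 CPM in NTC DMSO cells (SD, n = 3 each). Its edgeR adjusted p was 0.066 to 0.78 over the 6 comparisons, lowest between FL-NPM1c and C-body null cells (log2 0.21 ± 0.07). Of 9 tested annexins and annexin A2 partners, 1 was higher and 2 were lower in FL-NPM1c than in C-body null cells, where 4.82% of all genes were higher and 4.86% lower. These were ANXA4 (log2 0.59 ± 0.06, edgeR adjusted p = 1.1e-05), ANXA1, an annexin with anti-inflammatory roles in phagocytes (log2 -0.71 ± 0.11, edgeR adjusted p = 3e-04), and ANXA5 (log2 -0.28 ± 0.08, edgeR adjusted p = 0.041). The ANXA5 call was lost without any 1 of the 6 libraries compared (adjusted p 0.061 to 0.12). Of the 9, 6 had an unadjusted edgeR p under 0.05 in that comparison, and DESeq2 called 5.

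DDR2 (ENSG00000162733, chr1:162631373-162787400, plus strand) encodes a receptor tyrosine kinase that fibrillar collagen activates. It was measured at 5.95, 5.90 and 6.58 CPM in FL-NPM1c cells, 4.07, 5.31 and 3.58 CPM in C-body null cells, 7.07, 6.95 and 7.48 CPM in mCherry cells, and 21.1, 21.4 and 19.6 CPM in NTC DMSO cells. NTC DMSO libraries stood alone at the top, and FL-NPM1c libraries lay below every mCherry library. This was the only one of the 8 genes not higher in FL-NPM1c than in mCherry cells by edgeR: the difference was log2 -0.22 ± 0.12 (edgeR adjusted p = 0.24). FL-NPM1c cells were below NTC DMSO cells by log2 -1.75 ± 0.12 (edgeR adjusted p = 2.6e-08), and C-body null cells by log2 -2.26 ± 0.12 (edgeR adjusted p = 1.1e-09). C-body null cells were below mCherry cells by log2 -0.73 ± 0.13 (edgeR adjusted p = 0.01), lost without C-body null replicate 1 or 3 (adjusted p = 0.082 and 0.077; 5.5e-05 to 0.11 over the alternatives).

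Other genes for collagen receptors and DDR2 signalling were more often higher than lower against NTC DMSO cells, where DDR2 was lower. Of 16 tested, 7 were higher and 2 lower in FL-NPM1c than in NTC DMSO cells, 5 higher and 0 lower in C-body null than in NTC DMSO cells, and 4 higher and 0 lower in mCherry than in NTC DMSO cells; over all genes, 14.6%, 14.1% and 12.9% were higher and 13.3%, 12.4% and 9.69% lower. ITGA1, the collagen-binding integrin alpha 1, was the only one of the 16 called between FL-NPM1c and C-body null cells, where 9.68% of all genes were called (log2 -0.70 ± 0.11, edgeR adjusted p = 0.00033).

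CEMIP (ENSG00000103888, chr15:80779343-80951776, plus strand) encodes a secreted protein that binds hyaluronan and is needed for its breakdown. It stood at 23.5, 21.9 and 25.0 CPM in FL-NPM1c cells, 3.08, 3.85 and 4.03 CPM in C-body null cells, 3.26, 4.65 and 3.74 CPM in mCherry cells, and 3.97, 4.70 and 5.10 CPM in NTC DMSO cells. FL-NPM1c cells held all the high values, and the other 3 groups overlapped. It was 6.00-fold higher in FL-NPM1c than in mCherry cells (log2 2.58 ± 0.14, edgeR adjusted p = 3.9e-08) and 5.12-fold higher than in NTC DMSO cells (log2 2.36 ± 0.14, edgeR adjusted p = 4.1e-09). Its level in C-body null cells differed by log2 -0.10 ± 0.15 from mCherry cells (edgeR adjusted p = 0.81) and by log2 -0.33 ± 0.15 from NTC DMSO cells (edgeR adjusted p = 0.12). CEMIP was above every NTC DMSO library in 3 of 3 FL-NPM1c libraries. Without C-body null replicate 1 or mCherry replicate 2 the first of those differences was above 0 (log2 0.01 and 0.07; adjusted p = 0.99 and 0.8, and 0.77 to 0.99 over the alternatives).

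Among the other hyaluronan genes, 0 of 11 tested were called by edgeR between FL-NPM1c and C-body null cells (3 at an unadjusted p under 0.05, 0 by DESeq2), a count near the 9.68% of all genes called. Against NTC DMSO cells 4 were higher and 1 lower in FL-NPM1c cells, 5 higher and 1 lower in C-body null cells, and 3 higher and 1 lower in mCherry cells. Over all genes, 14.6%, 14.1% and 12.9% were higher and 13.3%, 12.4% and 9.69% lower in these comparisons. The 14 listed genes summed to 741 to 803 CPM in FL-NPM1c, 746 to 837 in C-body null, 778 to 883 in mCherry and 439 to 491 CPM in NTC DMSO libraries. CEMIP2, the related cell surface hyaluronidase, averaged 8.73 ± 0.711 CPM in FL-NPM1c cells, 7.23 ± 0.599 CPM in C-body null cells, 7.42 ± 0.841 CPM in mCherry cells and 5.31 ± 0.422 CPM in NTC DMSO cells (SD, n = 3 each); it was named after its values were seen.

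SDC1 (ENSG00000115884, chr2:20200797-20225433, minus strand) encodes syndecan 1, a heparan sulfate proteoglycan of the cell surface that also marks plasma cells as CD138. Its values were 6.10, 5.60 and 6.24 CPM in FL-NPM1c cells, 1.40, 1.90 and 1.76 CPM in C-body null cells, 1.88, 2.04 and 1.77 CPM in mCherry cells, and 3.17, 2.75 and 3.17 CPM in NTC DMSO cells. FL-NPM1c libraries were highest, NTC DMSO libraries came next, and C-body null and mCherry libraries overlapped. SDC1 was higher in FL-NPM1c cells than in mCherry cells (log2 1.65 ± 0.14, edgeR adjusted p = 1.2e-06) and NTC DMSO cells (log2 0.98 ± 0.13, edgeR adjusted p = 4.4e-05). C-body null cells were below NTC DMSO cells (log2 -0.84 ± 0.14, edgeR adjusted p = 0.00035), and differed from mCherry cells by log2 -0.17 ± 0.15 (edgeR adjusted p = 0.65).

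Among 21 tested syndecan, glypican and heparan sulfate enzyme genes, 3 were higher and 3 lower in FL-NPM1c than in C-body null cells, where 4.82% of all genes were higher and 4.86% lower. GPC1 and GPC3, lipid-anchored heparan sulfate proteoglycans, were among the higher (log2 0.80 ± 0.15, edgeR adjusted p = 0.0018, and log2 0.73 ± 0.09, edgeR adjusted p = 4e-05). SULF2, which trims sulfates from heparan sulfate, was among the lower (log2 -0.67 ± 0.14, edgeR adjusted p = 0.0058).

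DPP4 (ENSG00000197635, chr2:161992241-162074542, minus strand) encodes CD26, a surface peptidase that cuts dipeptides from chemokines and incretins and binds adenosine deaminase, the product of ADA. It was at 7.06, 7.67 and 8.50 CPM in FL-NPM1c cells, 4.07, 4.63 and 4.03 CPM in C-body null cells, 5.61, 4.91 and 5.15 CPM in mCherry cells, and 14.0, 13.7 and 12.5 CPM in NTC DMSO cells. The 4 groups did not overlap, and FL-NPM1c libraries lay nearer to mCherry than to NTC DMSO libraries. DPP4 was higher in FL-NPM1c than in mCherry cells (log2 0.57 ± 0.11, edgeR adjusted p = 0.0028) and lower than in NTC DMSO cells (log2 -0.79 ± 0.10, edgeR adjusted p = 4.8e-05). In C-body null cells it was lower than in NTC DMSO cells (log2 -1.66 ± 0.11, edgeR adjusted p = 1.1e-08), with a difference of log2 -0.30 ± 0.12 from mCherry cells (edgeR adjusted p = 0.33).

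Of 11 tested genes listed for the DPP4 family, its partners and their relatives, 1 was higher and 1 lower in FL-NPM1c than in C-body null cells, against the same shares of 4.82% and 4.86% over all genes. FAP, a close relative with collagenase activity, was higher (log2 0.61 ± 0.13, edgeR adjusted p = 0.0073), a call lost without FL-NPM1c replicate 1 (adjusted p = 0.052; 0.00035 to 0.052 over the alternatives). ADA2, a secreted adenosine deaminase from a gene other than ADA, was lower (log2 -0.92 ± 0.07, edgeR adjusted p = 4.7e-07). Its place in the list does not mean that it binds DPP4.

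TP53INP2 (ENSG00000078804, chr20:34704290-34713439, plus strand) encodes a nuclear protein that moves to the cytoplasm, binds proteins of the ATG8 family and promotes autophagy. It was measured at 99.5, 92.2 and 90.8 CPM in FL-NPM1c cells, 26.1, 24.3 and 27.8 CPM in C-body null cells, 47.6, 49.1 and 48.5 CPM in mCherry cells, and 98.0, 106.0 and 100.9 CPM in NTC DMSO cells. FL-NPM1c and NTC DMSO libraries overlapped, mCherry libraries lay far below both, and C-body null libraries lay lower still. TP53INP2 was higher in FL-NPM1c than in mCherry cells (log2 0.96 ± 0.08, edgeR adjusted p = 9.7e-07) and differed by log2 -0.11 ± 0.07 from NTC DMSO cells (edgeR adjusted p = 0.29). C-body null cells were lower than mCherry cells (log2 -0.89 ± 0.08, edgeR adjusted p = 2.4e-05) and than NTC DMSO cells (log2 -1.96 ± 0.08, edgeR adjusted p = 3.2e-11). None of these 4 results changed its call in the alternatives run, where the first p against mCherry cells reached 3.7e-05 and the second 0.0037 at most.

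Its paralogue TP53INP1, a p53 target that also binds ATG8 proteins, differed from it; TP53INP1 was named after its values were seen. TP53INP1 averaged 21.3 ± 1.5 CPM in FL-NPM1c cells, 22.8 ± 3.24 CPM in C-body null cells, 25.6 ± 2.58 CPM in mCherry cells and 5.29 ± 0.484 CPM in NTC DMSO cells (SD, n = 3 each). All 3 dTAG groups were higher than NTC DMSO cells, by log2 2.01 ± 0.12 in FL-NPM1c (edgeR adjusted p = 8.8e-09), 2.11 ± 0.12 in C-body null (edgeR adjusted p = 2.5e-09) and 2.27 ± 0.12 in mCherry cells (edgeR adjusted p = 1.5e-09). Among 22 tested ATG8 and early autophagy genes, 2 were higher and 0 lower in FL-NPM1c than in C-body null cells (4.82% and 4.86% of all genes): MAP1LC3A, an ATG8 family member (log2 1.39 ± 0.18, edgeR adjusted p = 8.8e-05), and ULK1, the kinase that starts autophagy (log2 0.61 ± 0.13, edgeR adjusted p = 0.0071). The ULK1 call was lost without C-body null replicate 2 (adjusted p = 0.052; 1.6e-05 to 0.052 over the alternatives). MAP1LC3A stood at 23.3, 23.4 and 18.6 CPM in FL-NPM1c cells, 8.03, 7.11 and 9.68 CPM in C-body null cells, 12.0, 12.1 and 7.52 CPM in mCherry cells, and 14.9, 12.1 and 19.0 CPM in NTC DMSO cells.

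MKX (ENSG00000150051, chr10:27672875-27746060, minus strand) encodes Mohawk, a homeobox factor of the TALE class, known for its part in tendon formation; its gene is not in a HOX cluster. It stood at 85.4, 97.5 and 104.2 CPM in FL-NPM1c cells, 53.8, 53.0 and 46.3 CPM in C-body null cells, 75.9, 74.1 and 79.5 CPM in mCherry cells, and 139.2, 127.9 and 109.3 CPM in NTC DMSO cells. Neighbouring groups did not overlap, but the gaps were small beside the spread in FL-NPM1c and NTC DMSO cells. MKX was higher in FL-NPM1c than in mCherry cells by log2 0.32 ± 0.10 (edgeR adjusted p = 0.036). That call was lost without FL-NPM1c replicate 1, 2 or 3 or mCherry replicate 1 or 3 (adjusted p = 0.056, 0.11, 0.12, 0.14 and 0.052; 0.0056 to 0.14 over the alternatives). FL-NPM1c cells were lower than NTC DMSO cells by log2 -0.39 ± 0.10 (edgeR adjusted p = 0.0076; 0.052 without NTC DMSO replicate 1, and 0.00016 to 0.052 over the alternatives). C-body null cells were lower than mCherry cells by log2 -0.58 ± 0.10 (edgeR adjusted p = 0.0088; 0.077 without C-body null replicate 3, and 1.3e-06 to 0.077 over the alternatives). Against NTC DMSO cells they were lower by log2 -1.30 ± 0.10 (edgeR adjusted p = 5.6e-08).

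MKX belongs to the same homeobox class as the IRX, TGIF and PKNOX genes. Of the 5 of those tested, 2 were higher and 0 lower in FL-NPM1c than in C-body null cells (4.82% and 4.86% of all genes). IRX3 averaged 107 ± 5.59 CPM in FL-NPM1c cells, 62.4 ± 5.25 CPM in C-body null cells, 67.9 ± 5.05 CPM in mCherry cells and 96.9 ± 7.21 CPM in NTC DMSO cells (SD, n = 3 each). It was higher in FL-NPM1c than in C-body null cells by log2 0.78 ± 0.09 (edgeR adjusted p = 1.8e-05) and lower in mCherry than in NTC DMSO cells by log2 -0.51 ± 0.09 (edgeR adjusted p = 0.00042). IRX5, its neighbour in the same Iroquois cluster, gave log2 0.80 ± 0.09 (edgeR adjusted p = 1.1e-05) and log2 -0.55 ± 0.09 (edgeR adjusted p = 0.00019).

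Set side by side, the tests that the rule did not use gave these counts. Between FL-NPM1c and mCherry cells 7 of the 8 genes were higher and 0 lower, where 7.58% of all genes were higher, 7.95% lower and 15.5% called in either direction. Between C-body null and mCherry cells 5 were lower (KCNMB4, ANXA2R, TP53INP2, MKX and DDR2) and 0 higher, where 0.378% of all genes were lower, 0.216% higher and 0.594% called. The count of 5 was 2 without C-body null replicate 1 or replicate 3, and 3 without C-body null replicate 2. FL-NPM1c against NTC DMSO gave 2 higher (CEMIP and SDC1) and 4 lower (KCNMB4, MKX, DDR2 and DPP4), where 14.6% were higher, 13.3% lower and 27.9% called. C-body null against NTC DMSO gave 7 lower, all but CEMIP, and 0 higher, where 12.4% were lower, 14.1% higher and 26.6% called. Each of these comparisons shares libraries with those that chose the genes, so the counts are no independent support for the choice. The median log2 fold change of the 8 was 1.11, -0.66, -0.30 and -1.81 in these 4 comparisons, and that of all genes lay between -0.01 and 0.02. Of 6 HOX comparators (HOXB9, HOXB8, HOXA13, HOXA10, HOXA9 and MEIS1), 4 were higher in FL-NPM1c and 6 lower in C-body null than in mCherry cells. Against NTC DMSO cells 5 were lower in FL-NPM1c and 6 in C-body null cells, with 0 called the other way in each comparison. The C-body null against mCherry calls of HOXA10, HOXB9 and HOXA9 were lost in 6, 5 and 1 of 14 alternatives. The FL-NPM1c against NTC DMSO calls of HOXA13 and HOXA10 were lost in 5 and 2 of 14.

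In the 2 comparisons that chose them, the 8 genes are given as description only. Between FL-NPM1c and C-body null cells, where 4.82% of all genes were higher, 4.86% lower and 9.68% called, they ran from log2 0.51 ± 0.13 in DDR2 through 0.87 ± 0.11 in DPP4, 0.91 ± 0.10 in MKX, 1.82 ± 0.14 in SDC1, 1.85 ± 0.08 in TP53INP2, 2.02 ± 0.13 in ANXA2R and 2.28 ± 0.16 in KCNMB4 to 2.68 ± 0.14 in CEMIP. Between mCherry and NTC DMSO cells, where 9.69% were lower, 12.9% higher and 22.6% called, they ran from log2 -1.78 ± 0.15 in KCNMB4 through -1.53 ± 0.12 in DDR2, -1.48 ± 0.12 in ANXA2R, -1.36 ± 0.11 in DPP4, -1.07 ± 0.08 in TP53INP2, -0.71 ± 0.10 in MKX and -0.67 ± 0.14 in SDC1 to -0.23 ± 0.15 in CEMIP. CEMIP, at the top of the first order, stood nearest to 0 in the second; DDR2, at the bottom of the first, was next to the lowest in the second.

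**Figure D2:**
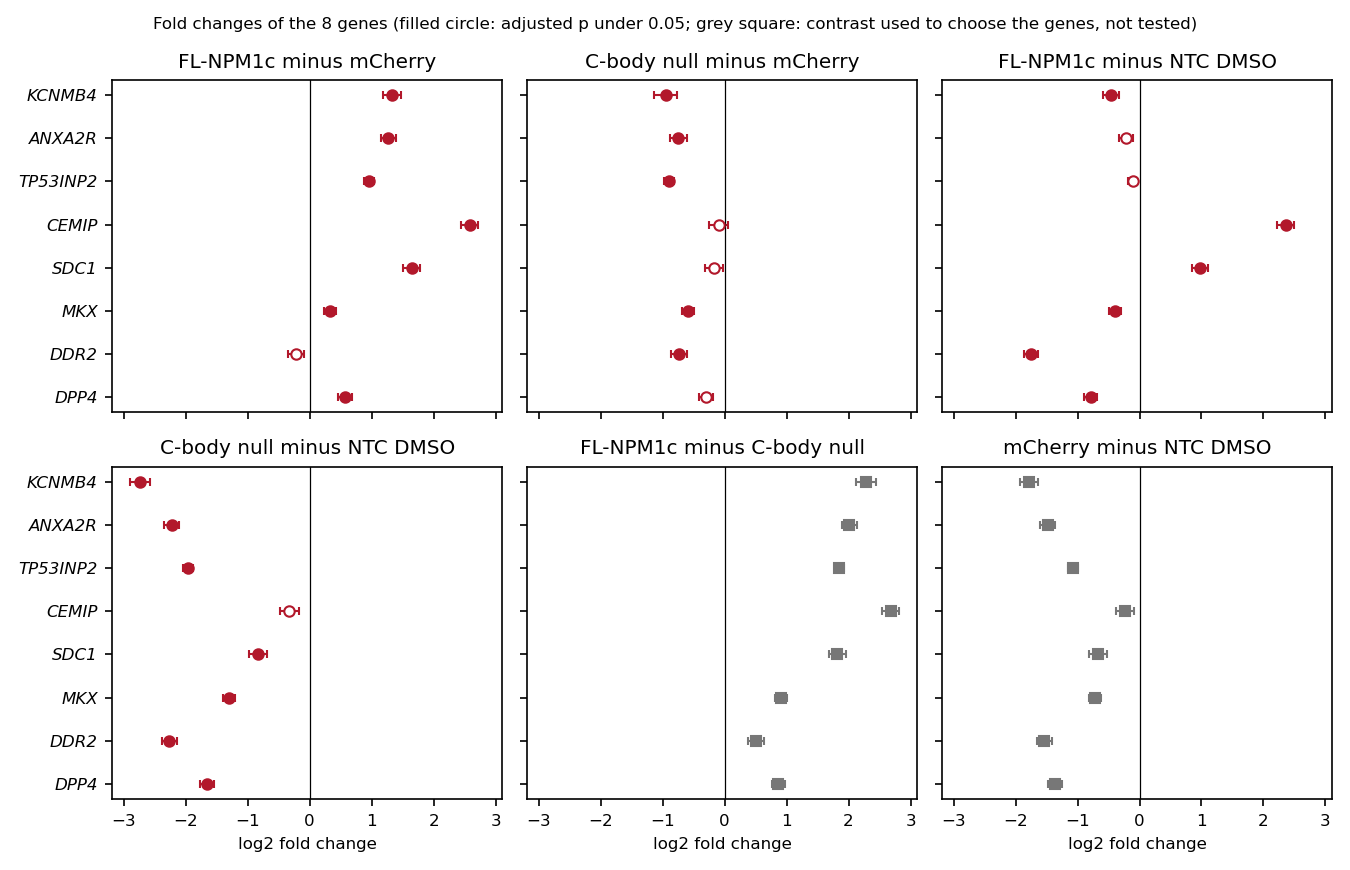
Log2 fold change (x axis) of each of the 8 genes (rows) in the 6 comparisons (panels), with SE bars; filled circles passed an adjusted p of 0.05, open circles did not, and grey squares are the 2 comparisons that chose the genes and carry no test. 7 filled circles lie above 0 for FL-NPM1c minus mCherry, and all 8 points lie below 0 for C-body null minus mCherry, 5 of them filled.

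Likeness across libraries was measured over the same 4 groups whose differences chose the 8 genes, so a positive r between them is in large part fixed by the choice. Pearson's r of log2 CPM over the 12 libraries, which fall into 4 groups and so are not 12 independent points, ranged over the 28 pairs of genes from -0.14 (CEMIP and DDR2) to 0.99 (KCNMB4 and ANXA2R), with a median of 0.80. CEMIP and SDC1 had an r of 0.93. Of 16338 genes with a symbol and at least 1 CPM on average, those most like KCNMB4 were HOXA10 (r = 0.998), HOXB3 (0.996) and ANXA2R (0.992), and those most like ANXA2R were HOXB3 (0.995), KCNMB4 (0.992) and HOXA10 (0.992). HOXA10 averaged 93.4 ± 2.53 CPM in FL-NPM1c cells, 47.9 ± 1.06 CPM in C-body null cells, 62.5 ± 2.56 CPM in mCherry cells and 110 ± 3.88 CPM in NTC DMSO cells (SD, n = 3 each), so its changes were smaller in size than those of KCNMB4.

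The other genes had different nearest matches. Most like TP53INP2 were ANXA2R-OT1 (0.993), JMJD1C-AS1 (0.992) and AC025171.3 (0.990). CEMIP was closest to PTGIS (0.968), APCDD1 (0.967) and NFKBIE (0.964), and SDC1 to MAST4 (0.982), OSR2 (0.979) and ETS2 (0.972). PTGIS, the prostacyclin synthase, averaged 4.07 ± 0.304 CPM in FL-NPM1c cells, 1.43 ± 0.168 CPM in C-body null cells, 1.29 ± 0.283 CPM in mCherry cells and 1.53 ± 0.135 CPM in NTC DMSO cells (SD, n = 3 each). MKX was most like GJA1 (0.988), RPS6KA5 (0.983) and MALINC1 (0.980), DDR2 like MAP2K6 (0.991), FKBP5 (0.988) and UBASH3B (0.988), and DPP4 like TWSG1 (0.988), CEP41 (0.982) and RPS6KA5 (0.981). RPS6KA5, the kinase MSK1, was thus a nearest match of both MKX and DPP4.

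The genes next to the 8 on the chromosome were read in the same way. Of 16 nearest protein-coding genes, 1 on each side by GENCODE 29, 13 were tested. By edgeR, 0 of the 13 were called between FL-NPM1c and mCherry cells (2 at an unadjusted p under 0.05, 0 by DESeq2) and 0 between C-body null and mCherry cells (4 at an unadjusted p under 0.05, 1 by DESeq2), where 15.5% and 0.594% of all genes were called. Between FL-NPM1c and C-body null cells 1 was called, where 9.68% of all genes were, ABHD17C beside CEMIP (log2 0.55 ± 0.10, edgeR adjusted p = 0.0024). At 13 genes, the counts between the dTAG groups are near those shares. Against NTC DMSO cells 2 were higher and 6 lower in FL-NPM1c cells, 1 higher and 7 lower in C-body null cells, and 1 higher and 4 lower in mCherry cells. Over all genes, 14.6%, 14.1% and 12.9% were higher and 13.3%, 12.4% and 9.69% lower in these comparisons. The lower counts thus lay above those shares, and the reason was not tested. RAB18, next to MKX, was lower than in NTC DMSO cells by log2 -0.76 ± 0.11 in FL-NPM1c (edgeR adjusted p = 9.3e-05), -0.93 ± 0.11 in C-body null (edgeR adjusted p = 6.8e-06) and -0.60 ± 0.11 in mCherry cells (edgeR adjusted p = 0.00066), and not called between the dTAG groups. SELENOP, left of ANXA2R, had 0, 1 and 0 counts in NTC DMSO libraries and 7 to 19 in the other 9.

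**Figure D3:**
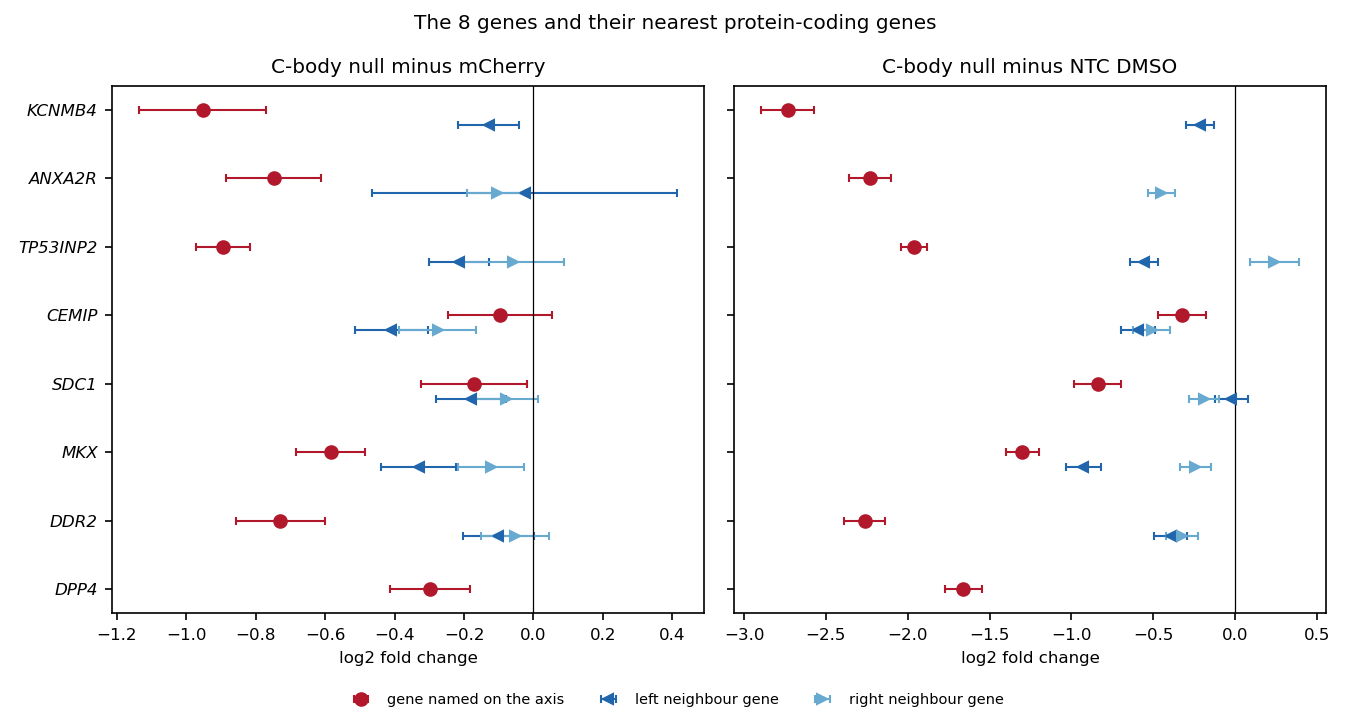
Log2 fold change (x axis, a scale per panel) with SE bars of each of the 8 genes (circles) and of the nearest protein-coding gene to its left and right (triangles), for C-body null minus mCherry and C-body null minus NTC DMSO. In the left panel KCNMB4, ANXA2R, TP53INP2, MKX and DDR2 lie further below 0 than their neighbours. CEMIP lies nearer to 0 than both its neighbours there, and SDC1 lies between its own. Neighbours that did not pass the filter, among them both of DPP4, and SELENOP against NTC DMSO, are not drawn.

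Several genes annotated over the 8 were called. Of 10 overlapping genes 7 were tested, and 4 of them were higher in FL-NPM1c than in C-body null cells and 0 lower, where 4.82% of all genes were higher and 4.86% lower: ANXA2R-OT1 (log2 1.01 ± 0.07, edgeR adjusted p = 1.4e-07), ANXA2R-AS1 (log2 0.99 ± 0.13, edgeR adjusted p = 7.8e-05), AC027808.1 over CEMIP (log2 2.13 ± 0.27, edgeR adjusted p = 7e-05) and MKX-AS1 (log2 1.82 ± 0.17, edgeR adjusted p = 2.1e-06). The strand setting of the counting is not given, so reads of a gene and of an antisense gene over its exons cannot be told apart. By GENCODE 29 the exons of ANXA2R-AS1 share 115 bases with those of ANXA2R and those of AC027808.1 share 71 bases with CEMIP. Of the tested genes not called there, MESD shares 224 exon bases with CEMIP and DPP4-DT shares 172 with DPP4. MESD averaged 47.3 CPM in FL-NPM1c, 47.15 in C-body null, 49.6 in mCherry and 63.55 in NTC DMSO cells, above CEMIP in each group. The part of shared reads in these levels was not tested. ANXA2R-OT1 and MKX-AS1 share 0 bases with the exons of ANXA2R and MKX.

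These 2 genes with no shared exon bases are given in full. MKX-AS1 stood at 4.90, 4.36 and 4.53 CPM in FL-NPM1c cells, 1.21, 1.14 and 1.55 CPM in C-body null cells, 2.76, 2.36 and 2.47 CPM in mCherry cells, and 3.25, 4.03 and 4.73 CPM in NTC DMSO cells. It was higher in FL-NPM1c than in mCherry cells (log2 0.86 ± 0.15, edgeR adjusted p = 0.0016) and lower in C-body null than in mCherry cells (log2 -0.95 ± 0.18, edgeR adjusted p = 0.015). The second call was lost without C-body null replicate 1 or 2 or mCherry replicate 1 (adjusted p = 0.096, 0.1 and 0.09; 0.00071 to 0.1 over the alternatives). ANXA2R-OT1 averaged 48.5 ± 1.27 CPM in FL-NPM1c cells, 24.1 ± 0.372 CPM in C-body null cells, 32.7 ± 0.451 CPM in mCherry cells and 48.5 ± 1.91 CPM in NTC DMSO cells (SD, n = 3 each). It was lower in C-body null than in mCherry cells (log2 -0.44 ± 0.07, edgeR adjusted p = 0.0076; 0.066 without C-body null replicate 1, and 5.5e-06 to 0.11 over the alternatives). Of the protein-coding genes over the 8, NCOA6 over TP53INP2 had an edgeR adjusted p of 0.52 to 0.97 over the 6 comparisons, and MESD over the end of CEMIP differed by log2 0.01 ± 0.08 between FL-NPM1c and C-body null cells (edgeR adjusted p = 0.98).

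**Figure D4:**
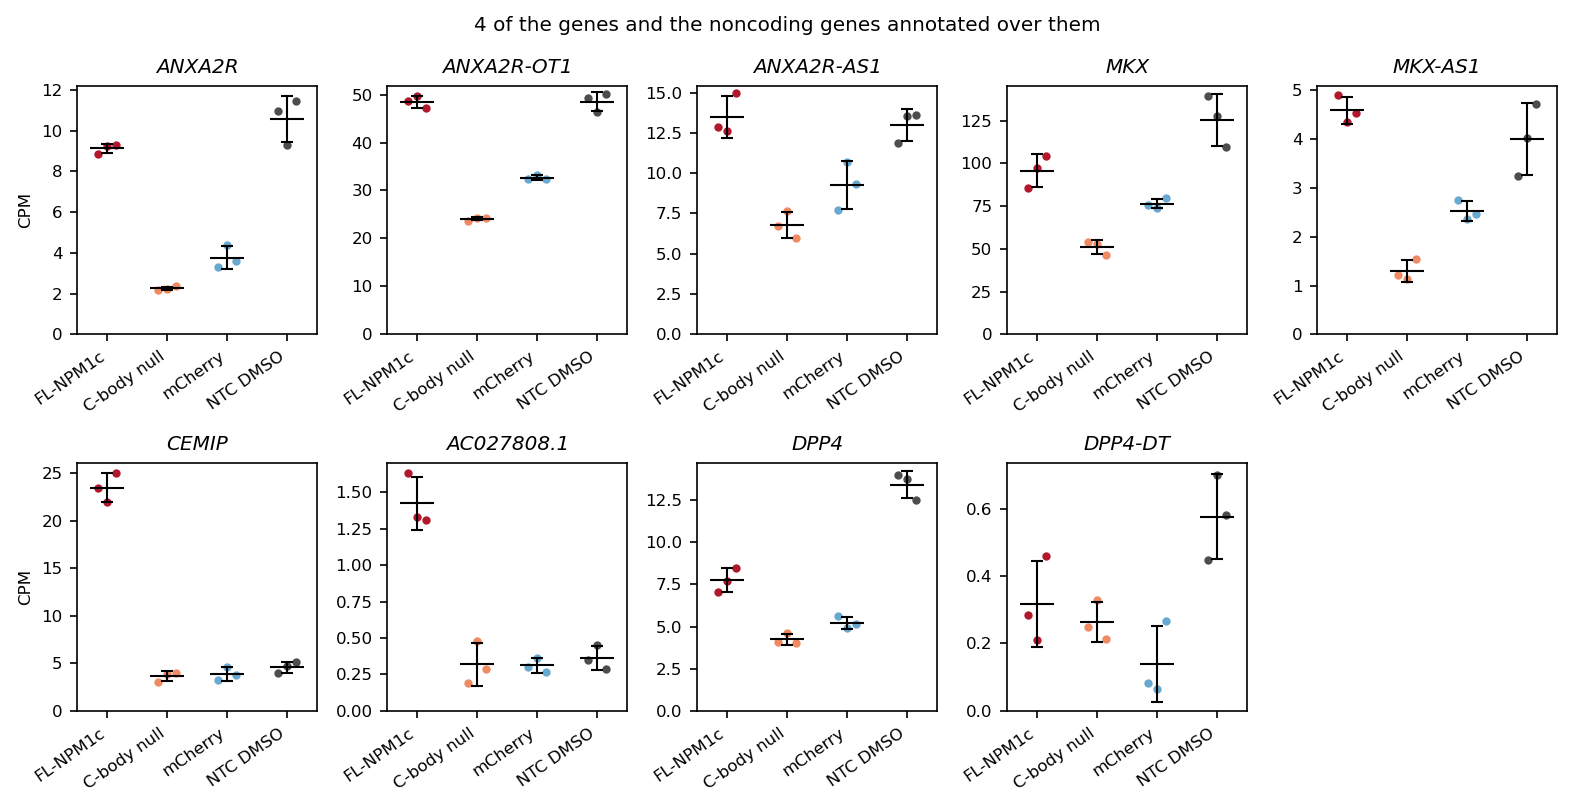
CPM (y axis, from 0, a scale per gene) of ANXA2R, MKX, CEMIP and DPP4 and of the noncoding genes annotated over them, in the 3 libraries of each group (points) with the mean and SD (bars); groups run FL-NPM1c, C-body null, mCherry, NTC DMSO. MKX-AS1 has its highest mean, 4.60 CPM, in FL-NPM1c libraries, but these overlap with NTC DMSO libraries (log2 0.20 ± 0.15, edgeR adjusted p = 0.33). MKX is highest in NTC DMSO libraries, and AC027808.1 averages 1.43 CPM in FL-NPM1c cells and no more than 0.363 CPM in the other groups.

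Several of the 8 genes are also known from cell types other than leukaemia cells, so markers of those types were read in the same libraries; in bulk RNA, fewer cells of a type and less RNA per cell cannot be told apart. For T cells, which carry DPP4, CD3D, CD3E, CD3G and CD2 had 0 counts in all 12 libraries, and IL7R was the only 1 of 8 markers tested (summed list 7.42 to 10.2 CPM in FL-NPM1c, 2.72 to 3.72 in C-body null, 5.00 to 7.35 in mCherry and 5.15 to 10.7 in NTC DMSO libraries). IL7R was called higher by edgeR in FL-NPM1c than in C-body null cells (log2 1.43), where 4.82% of all genes were higher and 4.86% lower. For B and plasma cells, which carry SDC1, the 8 markers summed to 0.280 to 0.675 CPM in FL-NPM1c, 0.165 to 0.304 in C-body null, 0.111 to 0.301 in mCherry and 0.317 to 0.550 in NTC DMSO libraries. PAX5, the only 1 of these tested, was called higher in FL-NPM1c than in C-body null cells by edgeR (log2 3.37) and not by DESeq2. The 8 fibroblast markers, for a cell type that carries DDR2 and CEMIP, summed to 1.31 to 2.07 CPM in FL-NPM1c, 0.620 to 1.01 in C-body null, 0.635 to 0.857 in mCherry and 0.951 to 1.17 in NTC DMSO libraries, with COL3A1 at 0 counts throughout. COL1A2, a collagen chain, was higher in FL-NPM1c than in C-body null cells (log2 2.73 ± 0.32, edgeR adjusted p = 3.2e-05), at 43 to 94 counts a library against 6 to 10. It was 1 of 2 fibroblast markers tested, and the other was not called and lay below 0 there. The median log2 fold change of the 2 was 0.86, and both had an unadjusted edgeR p under 0.05. Of all genes, 4.82% were higher and 4.86% lower in that comparison. The 6 epithelial markers summed to at most 0.607 CPM, with EPCAM, KRT19 and CDH1 at 0 counts.

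The 10 markers listed for the line's own myeloid cells summed to 3452 to 3529 CPM in FL-NPM1c, 4695 to 4883 in C-body null, 3637 to 3978 in mCherry and 1148 to 1210 CPM in NTC DMSO libraries, with KIT at 0 counts throughout. In FL-NPM1c against C-body null cells 4 of the 9 tested were lower and 0 higher, where 4.86% of all genes were lower and 4.82% higher. In mCherry against NTC DMSO cells 6 were higher and 0 lower, where 12.9% were higher and 9.69% lower. These sums, which follow the most abundant markers, ran opposite to most of the 8 genes, lowest in NTC DMSO and highest in C-body null libraries. The 9 tested markers did not all move together. Their median log2 fold change was 0.53 in mCherry against NTC DMSO cells and -0.14 in FL-NPM1c against C-body null cells. In FL-NPM1c against mCherry cells 2 were higher and 3 lower, with a median of -0.02, where 7.58% of all genes were higher and 7.95% lower. The part of these markers in the results was not tested.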

How the data were processed

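A stranded mRNA kit turned total RNA into libraries, per the labels. What the authors deposited is a raw count per Ensembl gene and library. STAR, featureCounts and DESeq2 with hg38 appear in the submitters' processing notes, with no version. Strand setting, annotation release and the handling of multi-mapped reads are not given in the sources consulted. Of the deposited lines, 6 broken ones (2 genes) were left out. Columns were matched to samples by library number, and groups follow the titles. Cell line labels end in running numbers, while the protocol speaks of 1 line.

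The 8 genes and all gene lists were chosen with earlier results of these data known. The counts went into edgeR 4.0.16 under R 4.3.3 (Python 3.11.15 for tables): filterByExpr by group kept 24064 genes and removed 0.0795% of counts, TMM factors were 0.975 to 1.02, and all 12 libraries entered 1 robust quasi-likelihood fit (common biological coefficient of variation 0.0975) with 6 contrasts. P-values were Benjamini-Hochberg adjusted over all genes tested and called under 0.05; SE is the log2 fold change over the root of F. Scripts were tested on simulated data. Libraries of a group differed beyond sampling noise, so each counts once. CPM carries a TMM-scaled total; RPKM uses the GENCODE 29 exon union. Precision rests on 30.5 M to 59.9 M counts a library and on the spread between 3 libraries a group. Named genes were the 8; per gene the 3 with the highest r; per list up to 3 of those called in FL-NPM1c minus C-body null with the largest change; neighbouring and overlapping genes; the HOX comparators; and NPM1. Genes named after their values were seen are marked. Alternatives were DESeq2 1.42.0, other scalings and filters, a replicate block, the 2 groups alone, and libraries left out.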

Additional observations from a re-analysis of the deposited data

How the results depend on the processing

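Over all alternatives the 8 genes kept direction and call in 423 of 448 results of the tested comparisons; 22 lost their call and 3 changed sign. Those 3 were CEMIP between C-body null and mCherry cells, not called in any of them: log2 0.0097 without C-body null replicate 1, 0.0693 without mCherry replicate 2 (-0.21 to 0.0693 with 1 library left out), and 0.0545 without mCherry replicate 2 and NTC DMSO replicate 3. In the comparisons that chose the genes, 216 of 216 values kept their sign and moved by less than 1 SD of the libraries within groups. Leaving out 1 of 3 libraries can hardly move a group mean by more than that. The genes were also chosen on these values, so the count does not test how firm they are. Of other named genes' calls, 1957 of 2096 held and 139 were lost.

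Counts of called genes moved more. Between FL-NPM1c and mCherry cells 3735 were called, 1621 to 6834 with 1 library left out (lowest without FL-NPM1c replicate 2, highest without mCherry replicate 2), and 8369 with mCherry replicate 2 and NTC DMSO replicate 3 left out. Between C-body null and mCherry cells the 143 called became 368 with no filter, 63 with the 2 groups alone, 357 by DESeq2, 3957 with those 2 libraries left out, and 60 to 1399 with 1 left out (lowest without C-body null replicate 1, highest without mCherry replicate 2). The 5 of the 8 genes called there became 2 with the 2 groups alone and 2 to 5 with 1 library left out. Between FL-NPM1c and NTC DMSO cells the 6712 ranged from 4190 to 7807 with 1 left out, and between FL-NPM1c and C-body null cells the 2329 ranged from 1365 to 2148 and became 4410 with the 2 groups alone. Between mCherry and NTC DMSO cells the 5429 became 3402 with the 2 groups alone. The cause of these shifts was not tested.

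Same-numbered libraries did not deviate together (r from -0.307 to 0.159), so the numbers are not read as pairs. With the replicate block, 86 genes were called between C-body null and mCherry cells, against 143 without it. In that fit KCNMB4 had an adjusted p of 0.056 there, and MKX 0.067 between FL-NPM1c and mCherry cells. Among the 8 genes KCNMB4 had the lowest counts, 27 to 29 a library in C-body null cells; SELENOP, COL1A2 and AC027808.1, named beside them, had fewer in some groups.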
